A study of Homo sapiens with 48 samples.

Results

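A pair of clones of 1 myeloma line with the same inducible shRNAs against XBP1 were compared for how they answered 48 h of doxycycline (Dox), and the genes and functions whose answers differed in size or in sign are described here. The 12 libraries of shXBP1 clone 1 and shXBP1 clone 18 at 0 and 48 h were chosen by their labels, 3 in each of 4 groups, out of 48 libraries in the series. The series sampled shIRE1 clones 1 and 3 and shXBP1 clones 1 and 18 of AMO1 at 0, 24, 48 and 72 h of Dox, to ask how myeloma cells depend on IRE1 and on its product XBP1s. AMO1 is an established human multiple myeloma line, labelled as a tumor plasma cell from a plasmacytoma. The genotype labels read XBP1 sh4,6,7 for both clones, followed by Clone 1 or Clone 18. The 48 h groups received 0.2 µg/ml Dox and the 0 h groups received none. For every gene the measure was the log2 fold change from 0 to 48 h in clone 18 minus that in clone 1, so that a positive value means a response that was higher in clone 18.

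Each clone is 1 selected line that carries 3 shRNAs, so a difference between them is a difference between 2 lines and cannot be told apart from differences between cells chosen from the parental line. No control shRNA enters the comparison, so each response also holds whatever Dox, or making any shRNA, does to these cells. The 3 libraries of a group are biological triplicates by the growth protocol in their labels. Total counts ran from 19177855 to 36736372 with a median of 30006616.5, so that 1 count was worth at most 0.0521 CPM, the unit of level used here, which scales the counts of each library to the same total. At 28 marker genes chosen from the 24 h libraries all 12 libraries lay with the clone of their label. All 14 plasma cell markers were detected in every library, with a summed level of 14860 to 21470 CPM, and the label of plasma cell holds by this measure. Of 34 markers of other cell types 10 were at 0 in all libraries (CD8B, FCGR3A, HBA1, PPBP, PF4, DCN, VWF, CDH5, MPO and ELANE), and the rest came mostly from CD4. The summed level of the 34 markers was 106.7 to 115 CPM in clone 1 at 0 h and 142.2 to 153.4 CPM at 48 h, against 478.4 to 491.2 CPM and 426.5 to 449.8 CPM in clone 18. Their part in the results below was not tested. In clone 1 at 0 h the library of replicate 1 stood apart, with higher counts for genes rich in G and C. Some of the results that move with it are given with and without it.

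XBP1 encodes a transcription factor that is made in its active form, XBP1s, only after IRE1, a kinase and RNase in the membrane of the endoplasmic reticulum (ER), has cut an intron out of its mRNA. XBP1s raises the genes for protein import, folding, sugar attachment, export and degradation in the ER, and plasma cells need it to secrete antibody. IRE1, PERK and ATF6 are the sensors of the unfolded protein response (UPR), and PERK works in part through the transcription factors ATF4 and CHOP, the product of DDIT3. ER stress response elements (ERSE) are the promoter sites through which ATF6 and XBP1s act.

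XBP1 (ENSG00000100219, chromosome 22) was depleted in both clones. It stood at 153, 163 and 165 CPM in clone 1 at 0 h and at 31.9, 36.6 and 34.4 CPM at 48 h. In clone 18 it stood at 158, 169 and 158 CPM at 0 h and at 43.8, 42.5 and 41.3 CPM at 48 h. The groups at 0 h overlapped between the clones, while at 48 h every library of clone 18 was above every library of clone 1. The log2 fold change was -2.22 in clone 1 and -1.93 in clone 18, a difference of 0.29 (SE 0.08, edgeR adjusted p = 0.0208). The call was lost in 7 of the fits that leave out 1 library, namely clone 1 0 h replicate 3, 48 h replicates 1 and 3, and clone 18 0 h replicates 1 and 3 and 48 h replicates 1 and 2 (adjusted p from 0.0514 to 0.0654), with values from 0.24 to 0.29. With the GC correction described below, which was chosen after seeing the data, the difference of XBP1 was 0.40 (edgeR adjusted p = 5.86e-06). IRF4, a transcription factor on which myeloma cells rely, stood at 1309, 1375 and 1378 CPM in clone 1 at 0 h and at 1463, 1599 and 1503 CPM at 48 h. It stood at 1545, 1558 and 1528 CPM in clone 18 at 0 h and at 1544, 1527 and 1436 CPM at 48 h. It rose by 0.17 in clone 1 and was at -0.04 in clone 18 (adjusted p = 0.650), a difference of -0.21 (SE 0.06, edgeR adjusted p = 0.0309) that 9 alternatives lost (adjusted p from 0.0510 to 0.0915). These were limma, no filter, and the fits without clone 1 48 h replicate 2 or 3, clone 18 0 h replicate 1, 2 or 3, or clone 18 48 h replicate 2 or 3.

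ERN1, the gene of IRE1 (ENSG00000178607, chromosome 17), moved in opposite directions. Its level was 183, 183 and 175 CPM in untreated clone 1 and 281, 282 and 278 CPM after 48 h. In clone 18 the level was 398, 390.3 and 392 CPM at 0 h and 332, 315 and 324 CPM at 48 h. No library of any group overlapped another group, and the clones came closer, since the lower clone rose and the higher clone fell. The responses were 0.63 in clone 1 and -0.28 in clone 18, a difference of -0.92 (SE 0.05, edgeR adjusted p = 9.85e-07).

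**Figure D1:**
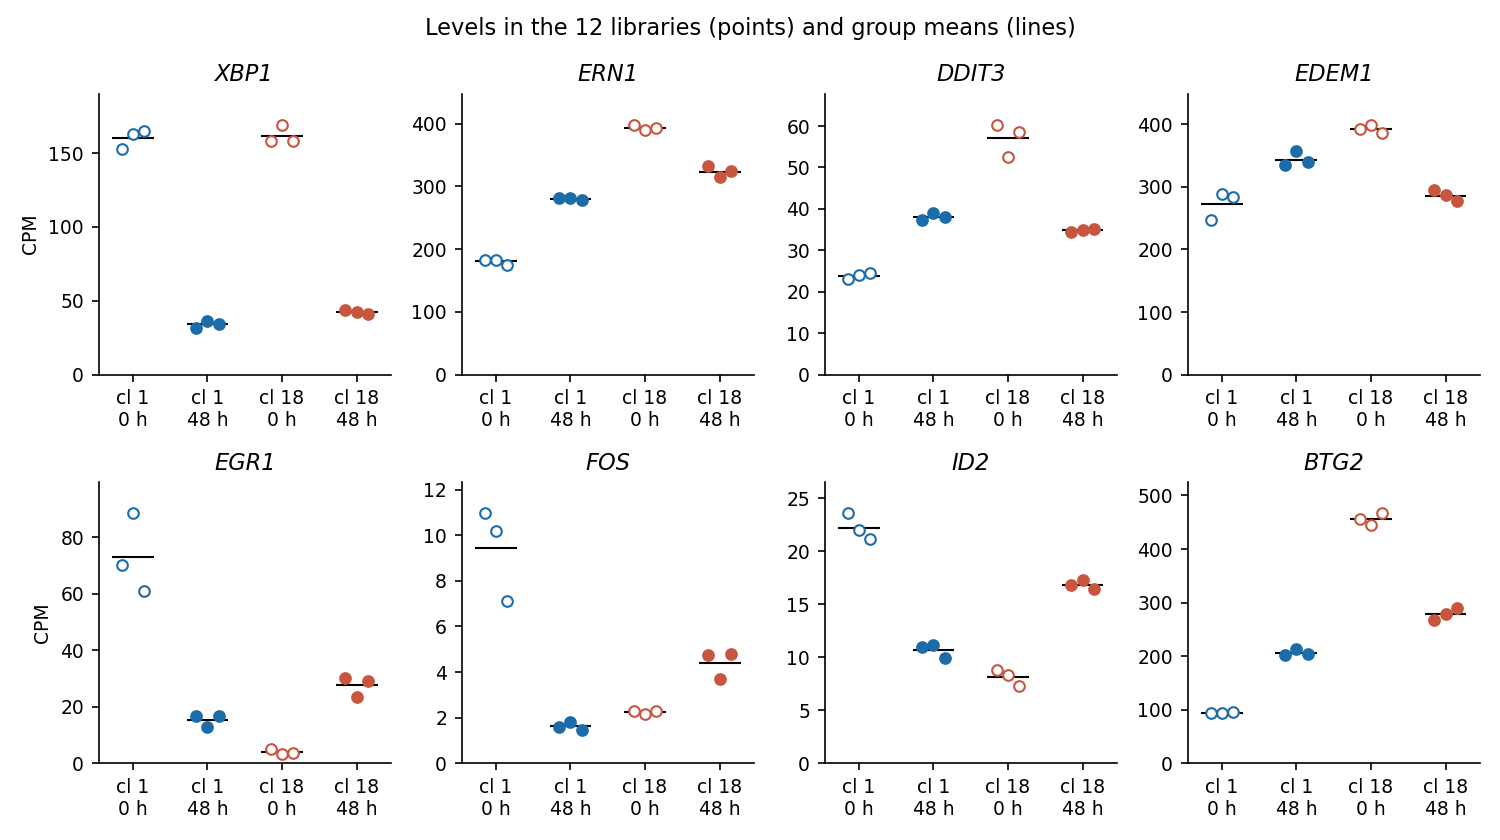
Levels of 8 genes in CPM on linear axes from 0, with 1 point for each library (open, 0 h; filled, 48 h; blue, clone 1; red, clone 18) and a line for the mean of 3. XBP1 falls in both clones, while ERN1, DDIT3, EDEM1 and BTG2 rise in clone 1 and fall in clone 18, and EGR1, FOS and ID2 do the reverse.

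The response of 3979 of 16644 genes tested differed between the clones (23.9%, edgeR quasi-likelihood test, adjusted p under 0.05), and 660 of them by at least 2-fold (3.97%). The response was higher in clone 18 for 1786 genes (10.7%) and lower for 2193 (13.2%), and the median over all genes was -0.01. Without the filter on low counts the balance turned, with 2339 higher and 1969 lower. Clone 1 changed more genes: 6356 were called there (38.2%), of which 3357 rose (20.2%) and 2999 fell (18%). In clone 18 there were 1829 (11%), of which 855 rose (5.14%) and 974 fell (5.85%). The GC correction described below gave 7388 genes in clone 1 and 4243 in clone 18. By the calls in each clone, 2758 of the differing genes (69.3%) changed in clone 1 alone, 507 (12.7%) in clone 18 alone, and 297 (7.46%) in neither on its own. Opposite directions were found for 335 genes (8.42%): 214 rose in clone 1 and fell in clone 18, and 121 did the reverse. Another 82 genes (2.06%) moved alike in both clones but by different amounts. With the correction for GC content described below the split was different: of the 6137 genes then called, 3161 (51.5%) changed in clone 1 alone, 1037 (16.9%) in clone 18 alone, 1201 (19.6%) in opposite directions and 358 (5.83%) alike. Of the 2758 genes called in clone 1 alone 1856 kept that class with the correction, and of the 507 in clone 18 alone 320 did. Where a gene is said below to change in 1 clone alone, the calls are those of the main fit unless the GC correction is named. Every 48 h minus 0 h pair of libraries of clone 18 lay above every such pair of clone 1 for 1925 genes (11.6%) and below for 2439 (14.7%). The counts for clone 18 and for opposite genes depend on single libraries. Without the clone 1 0 h library of replicate 1 they were 2630 and 463. Without clone 18 48 h replicate 1 they were 837 and 152, without 48 h replicate 2 838 and 150, and without 0 h replicates 1, 2 and 3 they were 999, 978 and 1006 for clone 18 and 190, 164 and 159 for opposite genes. The count of genes higher in clone 18 was 1124 without clone 18 0 h replicate 2 and 1152 without 0 h replicate 3. Of the genes that differed by at least 2-fold, 338 were higher in clone 18 and 322 lower. Without clone 1 0 h replicate 1 these counts were 215 and 324.

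**Figure D2:**
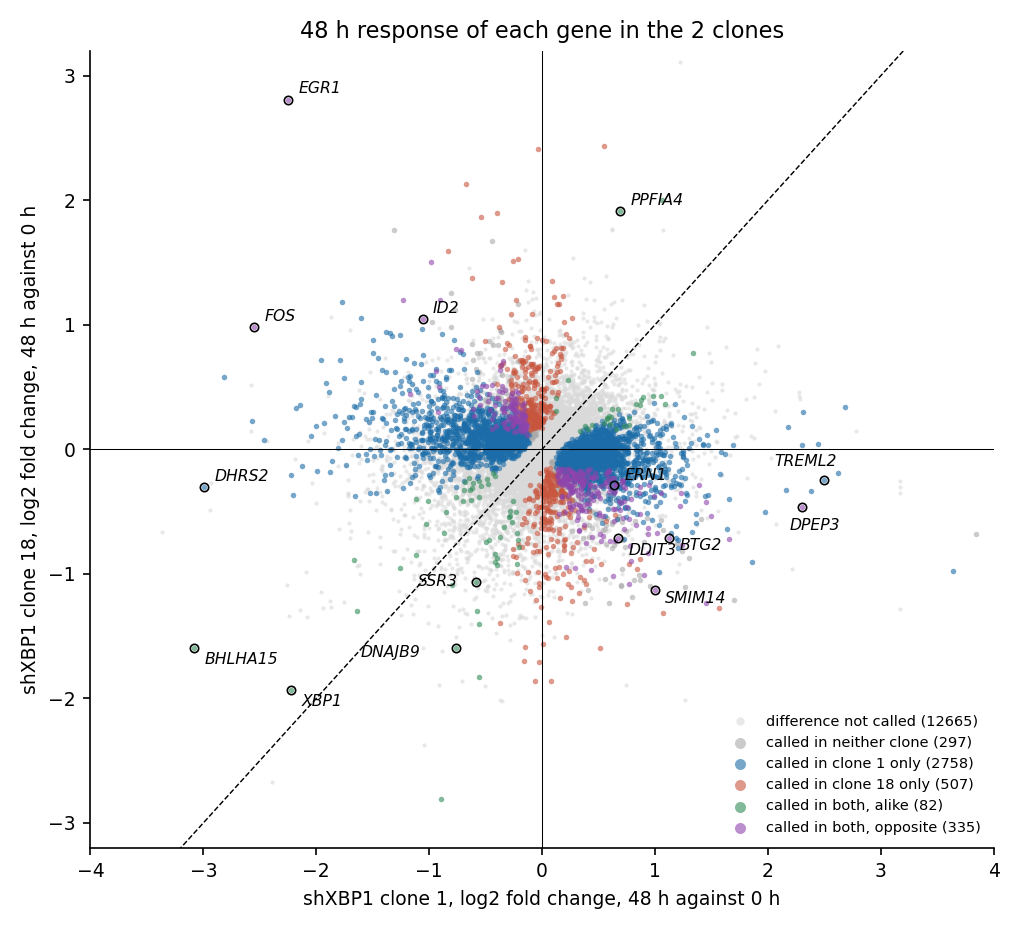
The log2 fold change from 0 to 48 h in clone 1 (horizontal) and in clone 18 (vertical) for each gene tested, coloured by the class of its calls, with 3 genes outside the axes; on the dashed line the responses are equal. Most of the 3979 differing genes lie along the horizontal axis, with a change in clone 1 and little in clone 18, and 335 lie in the corners where the clones moved in opposite directions.

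The clones differed before Dox. At 0 h 8918 genes were called between them (53.6%), and at 48 h 5709 (34.3%). Of the 3979 genes with a differing response 3359 were also called at 0 h, and in 3132 of these the gap between the clones was smaller at 48 h. It was larger in 227. These counts share the 0 h libraries with the difference in response and so are not independent of it. At the other times, which share no library with the 0 h groups, the median absolute gap between the clones over 16644 genes was 0.23 (log2) at 24 h, 0.22 at 48 h and 0.21 at 72 h, against 0.34 at 0 h. A gap of at least 2-fold was found in 11.6% of genes at 0 h, and in 6.30%, 6.52% and 5.40% at 24, 48 and 72 h. The 72 h value leaves out the clone 18 library of replicate 3, which resembles clone 1 and is not among the 12 libraries; with it the share was 2.63%.

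Part of the difference moved with the base composition of the transcripts. Genes were put in 10 bins of equal size by GC share. In the bin with the least G and C (26.5 to 38.2%) the median difference in response was -0.14, and in the bin with the most (60.9 to 76%) it was 0.47. The gradient lay in clone 1, whose median response went from 0.16 to -0.47, while in clone 18 it was 0.02 and 0.00. The clone 1 0 h library of replicate 1 deviated from its group by -0.15 in the lowest bin and by 0.42 in the highest. A correction of each library for the GC share of transcripts, chosen after seeing the data, left bins with medians from -0.04 to 0.00 and called 6137 genes (36.9%), of which 2985 were higher (17.9%) and 3152 lower (18.9%). Of the 3979 genes, 3746 were called in the same direction with the correction. Opposite directions were then found for 1201 genes. The difference fell from 2.34 to 0.99 for CCDC85B, from 1.997 to 0.62 for CTXN1, from 1.98 to 1.04 for PITX1 and from 1.82 to 0.94 for the linker histone gene H1FX. Without the library of replicate 1 alone, these 4 genes were at 1.19, 1.27, 1.34 and 1.46. In that library CCDC85B was at 22.5 CPM against 5.25 and 4.24 CPM in the other two, and PITX1, a homeobox gene, was at 38.8 CPM against 15.04 and 13.3 CPM. Apart from that library, the call for CCDC85B was lost with limma and without any 1 of the 48 h libraries of clone 1 or the 6 libraries of clone 18 (adjusted p from 0.0511 to 0.113), and that for CTXN1 without clone 1 48 h replicate 2, clone 18 0 h replicate 2 or 3, or clone 18 48 h replicate 3 (adjusted p from 0.0588 to 0.0742). By chromosome the median difference was largest on chromosome 19, at 0.25, and 0.05 after the correction.

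**Figure D3:**
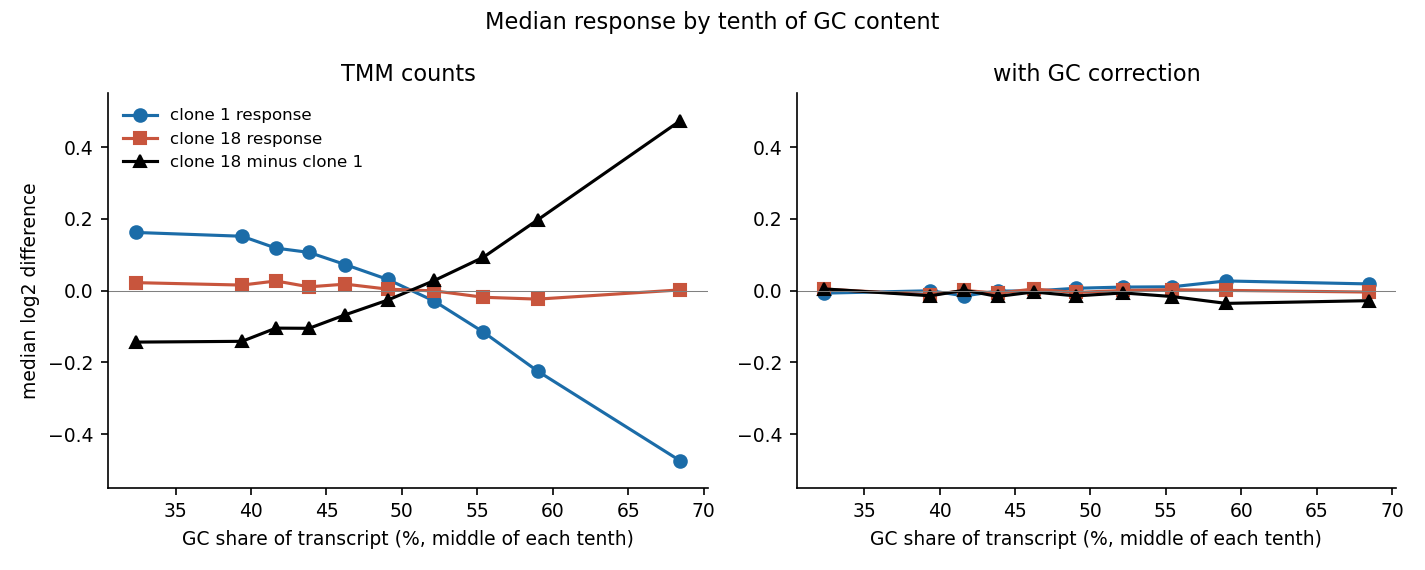
Median log2 response in clone 1 and in clone 18 and their difference, by bin of genes ordered by GC share of the transcript (%), for TMM-scaled counts (left) and with the GC correction (right). The difference runs from -0.14 to 0.47 on the left and stays within 0.04 of 0 on the right.

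EGR1 and FOS, which growth signals switch on within minutes, had the 2 largest differences among the named genes with a higher response in clone 18. EGR1 (ENSG00000120738, chromosome 5), a zinc finger transcription factor, had the largest higher response among the genes named by rule. It was at 70.2, 88.5 and 60.9 CPM in clone 1 at 0 h and at 16.5, 12.97 and 16.7 CPM at 48 h. In clone 18 it was at 5.16, 3.25 and 3.70 CPM at 0 h and at 30.04, 23.6 and 29.2 CPM at 48 h. All 4 groups were apart: the clone that started high fell and the clone that started low rose past it. The responses were -2.25 in clone 1 and 2.81 in clone 18, a difference of 5.06 (SE 0.25, edgeR adjusted p = 2.09e-07). FOS, a partner of JUN in the AP-1 factor, was at 10.97, 10.2 and 7.13 CPM in clone 1 at 0 h and at 1.58, 1.79 and 1.47 CPM at 48 h. In clone 18 FOS was at 2.29, 2.14 and 2.27 CPM at 0 h and at 4.74, 3.68 and 4.81 CPM at 48 h, a difference of 3.53 (SE 0.25, edgeR adjusted p = 3.69e-06). As with EGR1, no groups overlapped. ID2, which holds back basic helix-loop-helix factors, went from 23.6, 21.97 and 21.1 to 10.9, 11.2 and 9.90 CPM in clone 1. In clone 18 ID2 went from 8.84, 8.36 and 7.33 to 16.8, 17.3 and 16.4 CPM. The responses of ID2 were nearly mirror images, at -1.06 in clone 1 and 1.05 in clone 18, a difference of 2.10 (SE 0.12, edgeR adjusted p = 9.31e-07). HES1, a target of Notch signalling, fell by 0.91 in clone 1 and rose by 0.50 in clone 18. The difference of HES1 was 1.41 (SE 0.20, edgeR adjusted p = 0.000418). SNORD36A, listed as a small nucleolar RNA, differed by 1.04 (SE 0.21, edgeR adjusted p = 0.00400), but it lies within RPL7A, with which it may share reads.

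EGR1 is shown with its promoter because it carries a pair of CArG boxes, the sites bound by serum response factor, which drives immediate early genes. The sequence covers 250 bases before to 50 after the start in the RefSeq table (GRCh38.p14, chr5:138465229-138465528, plus strand, 5′ to 3′), and capitals mark the CArG boxes, which begin 105 and 83 bases before the start.
EGR1: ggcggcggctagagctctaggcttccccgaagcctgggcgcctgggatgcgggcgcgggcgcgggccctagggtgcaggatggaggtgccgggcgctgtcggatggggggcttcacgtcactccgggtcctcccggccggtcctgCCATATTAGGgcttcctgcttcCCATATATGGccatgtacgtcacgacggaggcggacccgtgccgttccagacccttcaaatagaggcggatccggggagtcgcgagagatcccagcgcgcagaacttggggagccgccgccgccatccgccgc
Motifs were searched on both strands in 35116 such promoters, and 92 of the 121 named genes had one, taking the first entry of each symbol. A CArG box was in 454 promoters (1.29%) and in those of EGR1 and BCL2 among the named genes. The cyclic AMP response element TGACGTCA was in 649 (1.85%) and in 6 named genes, CREB3L2, FADS1, CCNA2, DUSP1, LDHA and NDUFB2. The AP-1 site TGANTCA was in 2707 (7.71%) and in 4 named genes, SGPP2, DDIT3, JCHAIN and CD14. No motif was found in the FOS window, and bases more than 250 before the start were not searched for any gene.

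Another 6 genes with a higher response in clone 18 fell in clone 1, and of these PIM1 was also called in clone 18. With the GC correction SGPP2 and DHRS2 were called in clone 18 as well (edgeR adjusted p = 0.0487 and 0.0117). DUSP1, a phosphatase that switches off MAP kinases, was at 28.6, 24.8 and 23.2 CPM in clone 1 at 0 h and at 12.9, 11.9 and 12.4 CPM at 48 h. In clone 18 it stayed between 9.07 and 11.7 CPM, and the difference was 1.29 (SE 0.12, edgeR adjusted p = 2.84e-05). RGS1, a brake on G protein signalling, went from 29.8, 34.2 and 26.2 to 6.43, 7.16 and 7.08 CPM in clone 1. RGS1 lay between 18.3 and 24.2 CPM in all 6 libraries of clone 18, a difference of 1.99 (SE 0.16, edgeR adjusted p = 1.09e-05). The 48 h libraries of clone 1 were the lowest of the 12 for RGS1. SNAI1, a repressor known from epithelial transitions, fell by 2.14 in clone 1, to between 1.01 and 1.42 CPM. In clone 18 SNAI1 was low throughout, from 0.532 to 1.58 CPM, and differed by 2.50 (SE 0.37, edgeR adjusted p = 0.000554). SGPP2, a sphingosine phosphatase, had a response of -1.79 in clone 1 and 0.72 in clone 18 and a difference of 2.51 (SE 0.30, edgeR adjusted p = 0.000119). DHRS2, a dehydrogenase, was at 8.20, 7.48 and 7.45 CPM in clone 1 at 0 h and at 0.851, 1.25 and 0.787 CPM at 48 h. DHRS2 was at 18.4, 16.6 and 19.1 CPM in clone 18 at 0 h and at 16, 14.1 and 13.8 CPM at 48 h, a difference of 2.69 (SE 0.18, edgeR adjusted p = 2.50e-06). PIM1, a kinase gene induced by STAT factors, went the opposite ways in the clones, at -0.60 in clone 1 and 0.27 in clone 18, a difference of 0.87 (SE 0.07, edgeR adjusted p = 8.14e-06). Of the list of NF-kB and AP-1 genes 14 of 47 were higher in clone 18 and 7 were lower (44.7%, against 23.9% of all genes), with a median of 0.14. With the GC correction, when 36.9% of all genes were called, they were 13 and 12, with a median of 0.05. JUN, JUNB and NFKBIA of that list, picked after their values were seen, also fell in clone 1 and differed by 1.82 (SE 0.29, edgeR adjusted p = 0.000915), 1.57 (SE 0.42, edgeR adjusted p = 0.0168) and 0.81 (SE 0.09, edgeR adjusted p = 6.75e-05), and with the GC correction by 1.68, 0.97 and 0.78.

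The genes with the largest lower responses in clone 18 started low in clone 1 and higher in clone 18. BTG2, which slows the cell cycle and is a target of p53, was at 92.9, 94.3 and 95.5 CPM in clone 1 at 0 h and at 202, 213 and 203 CPM at 48 h. In clone 18 BTG2 was at 456, 445 and 467 CPM at 0 h and at 268, 279 and 289 CPM at 48 h. The groups did not overlap, and the span between the clones narrowed. The responses were 1.13 in clone 1 and -0.71 in clone 18, a difference of -1.84 (SE 0.06, edgeR adjusted p = 3.48e-09). DDIT4, which restrains mTOR under stress, was at 31.4, 20.1 and 19.1 CPM in clone 1 at 0 h and at 43.9, 33.8 and 43.6 CPM at 48 h. In clone 18 DDIT4 was at 112, 93.8 and 114 CPM at 0 h and at 52.2, 54.1 and 65.7 CPM at 48 h, a difference of -1.68 (SE 0.24, edgeR adjusted p = 0.000453). Every library of clone 18 stayed above every library of clone 1. HSPA1B is an inducible HSP70 gene that may share reads with its near-identical copy HSPA1A. It was at 5.68, 5.53 and 4.27 CPM in clone 1 at 0 h and at 8.51, 8.78 and 9.15 CPM at 48 h. In clone 18 HSPA1B was at 19.8, 18.4 and 19.9 CPM at 0 h and at 8.47, 9.10 and 9.74 CPM at 48 h, a difference of -1.85 (SE 0.15, edgeR adjusted p = 8.71e-06). At 48 h the clones overlapped for HSPA1B. SMIM14, a small membrane protein gene, had responses of 1.000 in clone 1 and -1.13 in clone 18 and a difference of -2.13 (SE 0.19, edgeR adjusted p = 1.88e-05). The cytokine gene IL24 had responses of 1.66 in clone 1 and -0.72 in clone 18 and a difference of -2.37 (SE 0.30, edgeR adjusted p = 0.000181).

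Several of these genes were near the detection limit in untreated clone 1. DPEP3, a dipeptidase gene, was at 0.194, 0.220 and 0.141 CPM there and at 4.099, 3.90 and 4.47 CPM in untreated clone 18, and differed by -2.77 (SE 0.28, edgeR adjusted p = 3.65e-05). TREML2, a receptor of the TREM family, was at 0.0968, 0.247 and 0.247 CPM in untreated clone 1 and rose to 1.45, 0.811 and 1.14 CPM. In clone 18 TREML2 stayed between 2.94 and 3.89 CPM, a difference of -2.75 (SE 0.35, edgeR adjusted p = 0.000199). Both genes were the lowest in untreated clone 1. LILRA2, a leukocyte receptor, rose by 1.45 in clone 1 and fell by 0.43 in clone 18, a difference of -1.88 (SE 0.18, edgeR adjusted p = 2.80e-05). ZNF780A, a zinc finger gene, was called in both clones in opposite directions, at -0.54 in clone 18, with a difference of -2.04 (SE 0.18, edgeR adjusted p = 1.44e-05). ADA2, a secreted adenosine deaminase, differed by -1.68 (SE 0.34, edgeR adjusted p = 0.00385), but with all 48 libraries in the fit its adjusted p was 0.0690. CLEC7A, the receptor dectin-1, fell in clone 18 and was at 0.86 in clone 1 (adjusted p = 0.0737), a difference of -1.74 (SE 0.41, edgeR adjusted p = 0.00864). LINC01355, a long noncoding RNA, moved by 0.78 in clone 1 and -0.78 in clone 18, a difference of -1.56 (SE 0.23, edgeR adjusted p = 0.000593). ZNF780A, LILRA2 and ADA2 overlap other annotated genes on their own strand, and SMIM14 and IL24 on the other strand alone. The share of reads from those is uncertain. Further named genes also overlap annotated genes on their own strand, among them ARFGAP3, MXD1, NDUFB2, MCL1 and HERPUD1.

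Many genes of protein import and folding in the ER fell in both clones. Of 28 ER chaperones and disulfide enzymes 17 fell in clone 1 and 16 in clone 18, against 18% and 5.85% of all genes. The difference was called in 1 higher and 4 lower (17.9% of the list against 23.9% of all genes), with a median of 0.03, and in 4 higher and 7 lower with the GC correction, when 36.9% of all genes were called. Of 24 genes of ER translocation and signal peptide processing 16 and 18 fell, and 2 were called higher and 3 lower (20.8%), with a median of -0.05, and with the GC correction 3 were higher and 5 lower, with a median of 0.01. Without clone 18 0 h replicate 2 or 48 h replicate 1 the 5 calls were 3. SEC61A1, the pore of the translocon, and SEC61B, its partner, chosen after their values were seen, fell by 1.08 and 1.13 in clone 1 and by 1.07 and 1.01 in clone 18. Their differences were 0.02 (SE 0.06, edgeR adjusted p = 0.865) and 0.12 (SE 0.17, edgeR adjusted p = 0.649). SSR3, a subunit of the translocon-associated complex, fell by 0.58 in clone 1 and by 1.06 in clone 18, a difference of -0.48 (SE 0.11, edgeR adjusted p = 0.00734). SRPRA, a subunit of the receptor for the signal recognition particle, fell in both clones and differed by -0.21 (SE 0.05, edgeR adjusted p = 0.0105), but it was not called without the filter on low counts (adjusted p = 0.120). SRP54, a subunit of that particle, fell in clone 18 and differed by -0.32 (SE 0.08, edgeR adjusted p = 0.0146).

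Some regulators of the UPR moved in opposite directions, among them ERN1, described above, DDIT3 and CREB3L2. Of 16 UPR sensors and regulators 2 were higher in clone 18 and 6 lower (50%, against 23.9% of all genes), with a median of -0.07. In clone 1 6 rose and 6 fell, and in clone 18 1 rose and 8 fell. DDIT3 was at 23, 24.1 and 24.6 CPM in clone 1 at 0 h and at 37.2, 39.01 and 38.04 CPM at 48 h. In clone 18 DDIT3 was at 60.3, 52.6 and 58.7 CPM at 0 h and at 34.4, 34.9 and 35.2 CPM at 48 h. Untreated clones differed by more than 2-fold, and at 48 h clone 1 was slightly above clone 18 in all libraries. The difference in response of DDIT3 was -1.39 (SE 0.09, edgeR adjusted p = 1.53e-06), from 0.67 in clone 1 and -0.71 in clone 18. DDIT3 overlaps ENSG00000285133 and MIR616 on its own strand and MARS1 and MBD6 on the other strand. CREB3L2, a membrane-bound factor of the ATF6 kind, had responses of 0.15 in clone 1 and -0.52 in clone 18 and a difference of -0.67 (SE 0.06, edgeR adjusted p = 2.33e-05). EIF2AK3, the gene of PERK, picked after its values were seen, rose by 0.25 and fell by 0.34, a difference of -0.59 (SE 0.09, edgeR adjusted p = 0.000817). HSPA5, the chaperone BiP and a target of ATF6, picked in the same way, rose by 0.19 in clone 18 and was at 0.12 in clone 1 (adjusted p = 0.0589), with a difference of 0.07 (SE 0.07, edgeR adjusted p = 0.464).

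ER-associated degradation pulls misfolded proteins out of the ER. Of its 19 genes 3 were called higher and 7 lower (52.6%, against 23.9% of all genes), with a median of -0.15. In clone 1 2 rose and 9 fell, and in clone 18 none rose and 12 fell. The 10 calls were 6 without any 1 of clone 1 48 h replicate 2, clone 18 0 h replicates 2 and 3 and the 3 clone 18 48 h libraries. EDEM1, a lectin that sends glycoproteins to degradation, was at 247, 288 and 284 CPM in clone 1 at 0 h and at 334, 356 and 339 CPM at 48 h. In clone 18 EDEM1 was at 393, 399 and 386 CPM at 0 h and at 295, 286 and 277 CPM at 48 h. The clone 1 libraries at 0 h overlapped those of clone 18 at 48 h for EDEM1, and the difference was -0.79 (SE 0.08, edgeR adjusted p = 3.65e-05). HERPUD1, a scaffold of the degradation complex, fell by 0.43 in clone 18 alone and differed by -0.48 (SE 0.06, edgeR adjusted p = 0.000101). UBE2G2, a ubiquitin-conjugating enzyme of this pathway, fell by 0.33 in clone 1 alone and differed by 0.42 (SE 0.06, edgeR adjusted p = 0.000745). ERO1B, which drives disulfide formation, fell by 0.64 in clone 18 alone and differed by -0.69 (SE 0.13, edgeR adjusted p = 0.00271). CALR, a calcium-binding chaperone of glycoproteins, went the other way: it fell by 0.18 in clone 1 and rose by 0.36 in clone 18, a difference of 0.54 (SE 0.06, edgeR adjusted p = 5.34e-05).

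Among genes called in the difference that fell in both clones, 25 fell more in clone 18 and 27 fell more in clone 1. With the GC correction 81 fell more in clone 18 and 135 in clone 1. DNAJB9, a cochaperone of BiP and a known target of XBP1s, was at 43.6, 50.2 and 46.2 CPM in clone 1 at 0 h and at 26.5, 29.4 and 26.6 CPM at 48 h. In clone 18 DNAJB9 was at 90.9, 94.5 and 90.6 CPM at 0 h and at 32.03, 31.6 and 27.5 CPM at 48 h. The level at 0 h was higher in every library of clone 18, and at 48 h the groups overlapped. The difference of DNAJB9 was -0.84 (SE 0.10, edgeR adjusted p = 0.000181). FICD, which modifies BiP, behaved alike: 9.74, 9.46 and 9.11 CPM and 6.96, 5.64 and 6.65 CPM in clone 1 at 0 and 48 h. In clone 18 it was at 17.2, 17.96 and 19.3 CPM and 6.25, 6.74 and 7.60 CPM, a difference of -0.84 (SE 0.14, edgeR adjusted p = 0.00124). ARFGAP3, which acts on Golgi coats, fell in both clones and differed by -0.47 (SE 0.08, edgeR adjusted p = 0.00146). BHLHA15 (MIST1), a factor of secretory cells and a target of XBP1s, fell by 3.08 in clone 1 and by 1.59 in clone 18, a difference of 1.49 (SE 0.48, edgeR adjusted p = 0.0380). Its call was lost in 7 of the fits without 1 library, namely clone 1 48 h replicates 1 and 2, clone 18 0 h replicates 2 and 3 and clone 18 48 h replicates 1, 2 and 3 (adjusted p from 0.0650 to 0.0886), and without clone 1 0 h replicate 1 its difference was 1.00. 

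XBP1, FICD and CALR are shown because each promoter holds an ERSE, read as CCAAT, 9 bases and CCACG on either strand, which 27 of the 35116 promoters (0.0769%) and 4 of the 92 named genes held, ERO1B being the fourth. Each spans 250 bases before to 50 after the start in RefSeq (GRCh38.p14), is written 5′ to 3′ on the strand of the gene, and has the ERSE in capitals. They lie at chr22:28800520-28800819 (XBP1, minus strand), chr12:108515027-108515326 (FICD, plus strand) and chr19:12938359-12938658 (CALR, plus strand, with the element on the other strand).
XBP1: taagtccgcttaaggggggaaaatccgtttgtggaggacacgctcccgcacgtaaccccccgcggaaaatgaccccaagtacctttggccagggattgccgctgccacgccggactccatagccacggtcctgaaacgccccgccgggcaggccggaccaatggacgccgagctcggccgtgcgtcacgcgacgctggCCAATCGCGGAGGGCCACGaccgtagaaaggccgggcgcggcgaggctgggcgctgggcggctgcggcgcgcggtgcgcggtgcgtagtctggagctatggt
FICD: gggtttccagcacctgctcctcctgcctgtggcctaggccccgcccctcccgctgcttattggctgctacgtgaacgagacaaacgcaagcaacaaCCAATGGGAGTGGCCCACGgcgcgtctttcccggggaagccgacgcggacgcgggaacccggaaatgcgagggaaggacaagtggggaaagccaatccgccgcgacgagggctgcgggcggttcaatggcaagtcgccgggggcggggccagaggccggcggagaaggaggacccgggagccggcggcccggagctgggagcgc
CALR: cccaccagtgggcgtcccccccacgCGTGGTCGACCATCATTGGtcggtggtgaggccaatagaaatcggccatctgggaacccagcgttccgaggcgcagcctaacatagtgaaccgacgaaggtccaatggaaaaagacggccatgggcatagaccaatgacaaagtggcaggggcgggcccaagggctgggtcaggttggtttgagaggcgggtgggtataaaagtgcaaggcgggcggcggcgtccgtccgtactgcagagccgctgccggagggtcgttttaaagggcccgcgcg
The differences were 0.29 for XBP1, -0.84 for FICD, -0.69 for ERO1B and 0.54 for CALR. XBP1 is the target of the shRNAs, and the others were named because they were called in the difference. A part of the element in these responses was not tested.

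Of 40 genes of ER to Golgi traffic 20 fell and 3 rose in clone 1, while 27 fell and none rose in clone 18. The difference was called in 2 higher and 11 lower (32.5%), with a median of -0.14, and in 8 and 14 with the GC correction. KDELR3, a receptor that returns ER proteins, fell by 0.82 in clone 18 alone and differed by -0.77 (SE 0.14, edgeR adjusted p = 0.00181), and SEC23B, a coat protein of export vesicles, did likewise with -0.28 (SE 0.05, edgeR adjusted p = 0.00280). With the GC correction SEC23B was called in both clones, at -0.14 in clone 1 and -0.35 in clone 18. Of 34 genes of N-glycosylation 17 fell in clone 1 and 16 in clone 18. In the difference 1 was higher and 6 were lower (20.6%, against 23.9% of all genes), with a median of -0.08. With the GC correction, when 36.9% of all genes were called, 4 were higher and 10 lower. The 7 calls were 2 without clone 1 48 h replicate 2, 3 without clone 18 0 h replicate 3 or 48 h replicate 2 or 3, and 4 without clone 1 48 h replicate 3 or clone 18 0 h replicate 1 or 2 or 48 h replicate 1. UGGT2, a folding sensor of glycoproteins, rose by 0.55 in clone 1 alone and differed by -0.61 (SE 0.11, edgeR adjusted p = 0.00237). STT3B, a catalytic subunit of the sugar transferase, rose by 0.21 in clone 1 alone and differed by -0.37 (SE 0.10, edgeR adjusted p = 0.0155). With the GC correction STT3B was instead called in clone 18 alone, at 0.06 in clone 1 and -0.19 in clone 18. UGGT1, the main folding sensor, fell by 0.30 in clone 18 alone, with a difference of -0.30 (SE 0.09, edgeR adjusted p = 0.0230) that 4 fits without 1 library lost (clone 1 48 h replicate 2, clone 18 0 h replicate 3 and clone 18 48 h replicates 2 and 3, adjusted p from 0.0568 to 0.0643).

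Of 8 tested genes that others reported as targets of regulated IRE1-dependent decay, in which IRE1 cuts mRNAs other than XBP1, 1 was called (12.5%, against 23.9% of all genes), HGSNAT, and with the GC correction 2 were called higher and 1 lower. HGSNAT, a lysosomal enzyme gene, rose by 0.40 in clone 1 and fell by 0.43 in clone 18, a difference of -0.83 (SE 0.10, edgeR adjusted p = 0.000142). The median over the 8 was -0.04, and 2 were called without clone 1 0 h replicate 2 or 48 h replicate 1. CD59, a complement inhibitor on the cell surface chosen after its values were seen, fell by 1.12 in both clones, with a difference of 0.00 (SE 0.06, edgeR adjusted p = 0.988).

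Of 42 genes that are ATF4 targets or serve amino acid supply 16 rose and 10 fell in clone 1, while none rose and 11 fell in clone 18. The difference was called in 3 higher and 15 lower (42.9%, against 23.9% of all genes), with a median of -0.15. CTH, which makes cysteine from cystathionine, was at 11.9, 13.9 and 14.9 CPM in clone 1 at 0 h and at 27.1, 30.3 and 26.6 CPM at 48 h. In clone 18 CTH lay between 26.3 and 29.6 CPM in all 6 libraries. Clone 1 thus reached the range of clone 18, and the difference was -1.06 (SE 0.12, edgeR adjusted p = 9.43e-05). ALDH1L2, a mitochondrial enzyme of folate metabolism, moved by 0.42 in clone 1 and -0.29 in clone 18 and differed by -0.71 (SE 0.09, edgeR adjusted p = 0.000195). CHAC1, which degrades glutathione and lies downstream of ATF4 and CHOP, was picked after its values were seen and moved by 0.65 in clone 1 and -0.74 in clone 18, a difference of -1.39 (SE 0.18, edgeR adjusted p = 0.000284). Of 33 genes of cholesterol and fatty acid synthesis 2 were higher and 9 lower (33.3%), with a median of -0.11. With the GC correction, when 36.9% of all genes were called, they were 3 and 14. FADS1, a fatty acid desaturase, was at 117, 139.5 and 129 CPM and 189, 194 and 185 CPM in clone 1 at 0 and 48 h. In clone 18 FADS1 was at 256, 256 and 268 CPM and 216, 218 and 214 CPM, a difference of -0.83 (SE 0.08, edgeR adjusted p = 2.76e-05). The groups of FADS1 did not overlap, and clone 18 stayed higher. INSIG1, which holds back sterol synthesis, moved by 0.20 in clone 1 and -0.50 in clone 18 and differed by -0.71 (SE 0.09, edgeR adjusted p = 0.000199). ACSS2, which makes acetyl-CoA from acetate, rose by 0.90 in clone 1 alone and differed by -0.82 (SE 0.12, edgeR adjusted p = 0.000533).

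No S phase or G2/M gene was called lower in the difference. Of 51 S phase genes 30 fell and 2 rose in clone 1, while 1 fell and 2 rose in clone 18. Over all genes 18% fell and 20.2% rose in clone 1, and 5.85% fell and 5.14% rose in clone 18. The difference was higher in 26 (51%, against 10.7% of all genes), with a median of 0.25. With the GC correction, when 17.9% of all genes were called higher, it was higher in 39. Of 55 G2/M genes 27 fell and 4 rose in clone 1, while none fell and 22 rose in clone 18. Here the difference was higher in 31 (56.4%), with a median of 0.33, and in 47 with the GC correction. PCNA, the clamp of DNA polymerases, was at 539, 530.1 and 545 CPM in clone 1 at 0 h and at 394, 389.6 and 387 CPM at 48 h. In clone 18 PCNA was at 314, 315 and 306 CPM at 0 h and at 338, 334 and 327 CPM at 48 h. Every clone 1 library was above every clone 18 library at both times, with a smaller distance at 48 h. The difference of PCNA was 0.56 (SE 0.05, edgeR adjusted p = 1.69e-05). MCM4, part of the replicative helicase, and RRM2, which makes deoxynucleotides, fell by 0.39 and 0.61 in clone 1 and differed by 0.50 (SE 0.05, edgeR adjusted p = 5.29e-05) and 0.73 (SE 0.10, edgeR adjusted p = 0.000333). CCNA2, cyclin A2, was at 221, 232 and 227 CPM and 175, 185 and 178 CPM in clone 1 at 0 and 48 h. In clone 18 CCNA2 was at 136, 146 and 134 CPM and 175, 169 and 168 CPM, a difference of 0.64 (SE 0.06, edgeR adjusted p = 4.09e-05). The 48 h libraries of the clones were close, with 1 of clone 18 inside the range of clone 1. FOXM1, a factor that drives G2/M genes, and HJURP, a centromere chaperone, moved in opposite directions and differed by 0.56 (SE 0.07, edgeR adjusted p = 0.000102) and 0.52 (SE 0.06, edgeR adjusted p = 8.36e-05). E2F1 and CDC25A, an S phase factor and the phosphatase that activates CDK2, which the study followed, fell by 0.60 and 0.23 in clone 1 and were at -0.13 and -0.02 in clone 18 (adjusted p = 0.436 and 0.866). Their differences were 0.47 (SE 0.14, edgeR adjusted p = 0.0265) and 0.21 (SE 0.06, edgeR adjusted p = 0.0270).

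Cell cycle inhibitors and p53 targets were mixed, with 8 higher and 5 lower of 30 (43.3%, against 23.9% of all genes) and a median of 0.03. With the GC correction, when 36.9% of all genes were called, 9 were higher and 9 lower. CDKN1B, the inhibitor p27, rose by 0.44 in clone 1 and was at -0.11 in clone 18 (adjusted p = 0.132), a difference of -0.56 (SE 0.06, edgeR adjusted p = 8.40e-05). CDKN2C, the inhibitor p18, moved by -0.33 in clone 1 and 0.18 in clone 18 and differed by 0.51 (SE 0.07, edgeR adjusted p = 0.000448). MXD1, an antagonist of MYC, was named under the MYC list and moved by 0.37 in clone 1 and -0.24 in clone 18, a difference of -0.61 (SE 0.08, edgeR adjusted p = 0.000162). Of 46 genes of MYC and ribosome biogenesis 25 fell and 3 rose in clone 1, and 1 fell and 3 rose in clone 18. The difference was higher in 21 and lower in 1, MXD1 (47.8%), with a median of 0.25, and the 22 calls were 14 without clone 1 48 h replicate 3 or clone 18 0 h replicate 3. NOP58, a core protein of box C/D nucleolar particles, was at 310, 331 and 325 CPM and 268, 286 and 266 CPM in clone 1 at 0 and 48 h. In clone 18 NOP58 was at 232, 235 and 235 CPM and 284, 285 and 265 CPM, a difference of 0.49 (SE 0.06, edgeR adjusted p = 0.000264). Its partner NOP56 fell by 0.40 in clone 1 alone and differed by 0.41 (SE 0.05, edgeR adjusted p = 0.000281). MYC itself, looked up after the lists, fell by 0.41 in clone 1 and was at 0.03 in clone 18 (adjusted p = 0.881), a difference of 0.44 (SE 0.12, edgeR adjusted p = 0.0193). Of cytoplasmic ribosomal protein genes, 23 of 76 were lower and 5 higher (36.8%), with a median of -0.09. RPL4 rose by 0.31 in clone 1 and differed by -0.45 (SE 0.06, edgeR adjusted p = 0.000293), and RPS13 moved by 0.22 in clone 1 and -0.29 in clone 18 and differed by -0.51 (SE 0.07, edgeR adjusted p = 0.000315). RPL21 differed by 1.67 (SE 0.24, edgeR adjusted p = 0.000495), but its level was only 0.844 to 2.97 CPM. It has many processed copies, and how reads that match several copies were counted was not tested.

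**Figure D4:**
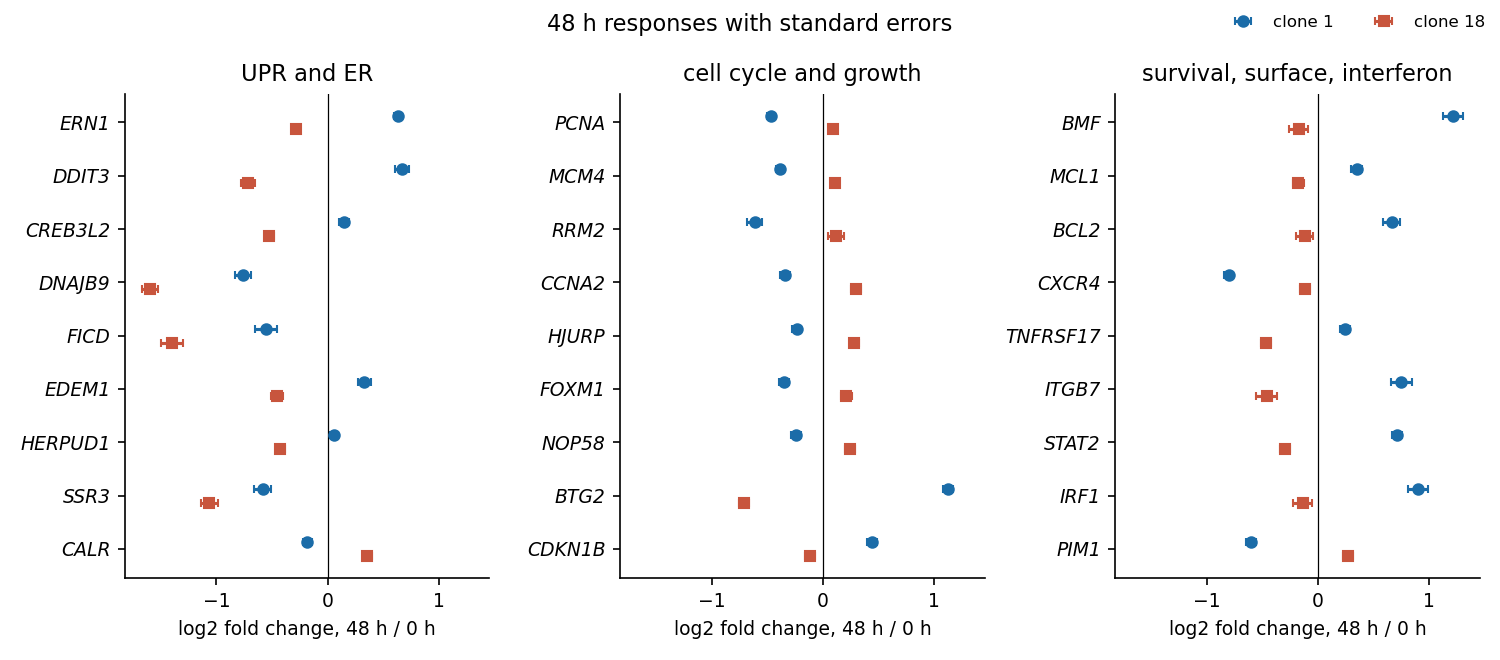
Log2 fold change from 0 to 48 h (horizontal axis) with its standard error for 27 named genes in clone 1 (blue circles) and clone 18 (red squares), in 3 panels by function. BTG2 lies at 1.13 in clone 1 and -0.71 in clone 18, and DNAJB9, FICD and SSR3 lie left of 0 in both clones and farther left in clone 18.

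Of 26 histone genes tested, many of which lack poly(A) tails and are read poorly by an mRNA kit, 10 fell in clone 1 and 2 in clone 18, and 6 were higher in the difference and none lower (23.1%, near the 23.9% of all genes), with a median of 0.45. The 6 calls were 12 without clone 1 48 h replicate 3. H2AFZ, a variant made throughout the cell cycle, fell by 0.26 in clone 1 and differed by 0.30 (SE 0.06, edgeR adjusted p = 0.00247). HIST1H3G fell by 0.84 and differed by 1.11 (SE 0.25, edgeR adjusted p = 0.00679). HIST1H1C fell in both clones and differed by 0.43 (SE 0.12, edgeR adjusted p = 0.0216), which was lost with all 48 libraries and without clone 18 0 h replicate 2 or 3 or 48 h replicate 3 (adjusted p from 0.0523 to 0.0731).

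Of 13 mitochondrially encoded genes 11 fell in clone 1 and 1 in clone 18. In the difference 8 were higher (61.5%, against 23.9% of all genes called in either direction), with a median of 0.35. MT-CYB, the cytochrome b of complex III, was at 4498, 4091 and 4013 CPM and 2473, 2496 and 2588 CPM in clone 1 at 0 and 48 h. In clone 18 MT-CYB lay between 2848 and 3243 CPM in all 6 libraries, and the difference was 0.71 (SE 0.08, edgeR adjusted p = 8.40e-05). All the clone 1 libraries were above that range at 0 h and below it at 48 h. MT-ND1 and MT-ND6, of complex I, differed by 0.74 (SE 0.11, edgeR adjusted p = 0.000462) and 0.55 (SE 0.08, edgeR adjusted p = 0.000549). Of 70 nuclear genes of the respiratory chain 22 were higher and 3 lower (35.7%), with a median of 0.19, and the 25 calls were 15 without clone 18 0 h replicate 2. UQCR10, of complex III, moved by -0.26 in clone 1 and 0.26 in clone 18 and differed by 0.53 (SE 0.09, edgeR adjusted p = 0.00188), and NDUFB2 and NDUFA8, of complex I, differed by 0.46 (SE 0.08, edgeR adjusted p = 0.00203) and 0.36 (SE 0.07, edgeR adjusted p = 0.00305). Of 36 genes of glycolysis and the hypoxia response 17 rose in clone 18 and none fell, against 14 and 8 in clone 1. The difference was higher in 13 and lower in 2 (41.7%), with a median of 0.17. LDHA, which makes lactate, was at 651, 724 and 682 CPM and 524, 642 and 585 CPM in clone 1 at 0 and 48 h. In clone 18 LDHA was at 522, 543 and 574 CPM and 736, 794 and 731 CPM, a difference of 0.70 (SE 0.10, edgeR adjusted p = 0.000428). The highest 3 of the 12 libraries for LDHA were those of clone 18 at 48 h. SLC2A1, the glucose transporter GLUT1, and HK2, a hexokinase, rose by 0.62 and 0.37 in clone 18 alone and differed by 0.77 (SE 0.12, edgeR adjusted p = 0.000795) and 0.38 (SE 0.06, edgeR adjusted p = 0.000520).

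Of 35 proteasome genes 18 fell and 2 rose in clone 1, against 1 and 1 in clone 18. In the difference 14 were higher and 1 lower (42.9%, against 23.9% of all genes), with a median of 0.18. With the GC correction, when 36.9% of all genes were called, they were 23 and 3. The 15 calls were 8 without clone 1 48 h replicate 3. PSMB2, a subunit of the core, fell by 0.32 in clone 1 and differed by 0.38 (SE 0.06, edgeR adjusted p = 0.00117). PSMA6 differed by 1.10 (SE 0.22, edgeR adjusted p = 0.00375), at only 1.32 to 2.61 CPM. The lower gene was NFE2L1, the factor that raises proteasome genes, which rose by 0.34 in clone 1 and differed by -0.48 (SE 0.07, edgeR adjusted p = 0.000579). Of 23 cytosolic heat shock genes 8 were higher and 3 lower (47.8%), with a median of 0.27, and 15 and 2 with the GC correction. In clone 1 10 of them fell and 2 rose, and in clone 18 3 fell and 5 rose. HSP90AA1 was at 1223, 1305 and 1304 CPM and 1033, 1141 and 1053 CPM in clone 1 at 0 and 48 h. In clone 18 HSP90AA1 was at 903, 935 and 914 CPM and 1212, 1204 and 1128 CPM, a difference of 0.61 (SE 0.07, edgeR adjusted p = 7.92e-05), and its cochaperone AHSA1 differed by 0.50 (SE 0.06, edgeR adjusted p = 9.44e-05). HSPA1B, described above, went the other way. Of 28 NRF2 and antioxidant genes 11 were higher and none lower (39.3%), with a median of 0.14, and 16 and 1 with the GC correction. The 11 calls were 6 without clone 18 0 h replicate 2 and 7 without 0 h replicate 3. FTL, the light chain of ferritin, went from 3022, 2978 and 2959 to 1696, 1457 and 1587 CPM in clone 1. In clone 18 FTL was at 2038, 1881 and 1978 CPM and 1741, 1729 and 1881 CPM, a difference of 0.78 (SE 0.08, edgeR adjusted p = 4.17e-05). SOD1 and NQO1 fell in clone 1 and rose in clone 18 and differed by 0.44 (SE 0.06, edgeR adjusted p = 0.000313) and 0.41 (SE 0.06, edgeR adjusted p = 0.000540).

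Plasma cell genes split. Of 31 genes of plasma cell and B cell identity 7 were higher and 11 lower (58.1%, against 23.9% of all genes), with a median of -0.12. The 18 calls were 11 without clone 18 0 h replicate 3. ITGB7, an integrin chain of homing and adhesion, was at 45.01, 39.4 and 34.7 CPM and 68.4, 59.4 and 72.8 CPM in clone 1 at 0 and 48 h. In clone 18 ITGB7 was at 243, 226 and 241 CPM and 161, 166 and 188 CPM, a difference of -1.21 (SE 0.13, edgeR adjusted p = 7.45e-05). Clone 18 remained above clone 1 in every library. TNFRSF17, the receptor BCMA, moved by 0.25 in clone 1 and -0.46 in clone 18 and differed by -0.71 (SE 0.06, edgeR adjusted p = 1.93e-05). CXCR4, the receptor that keeps plasma cells in bone marrow, went from 280, 284 and 281 to 156, 166 and 161 CPM in clone 1. In clone 18 CXCR4 lay between 117 and 134 CPM, and the difference was 0.69 (SE 0.06, edgeR adjusted p = 1.29e-05). Among 14 plasma cell line markers 3 were higher and 5 lower (57.1%), with a median of -0.03. SLAMF7 moved by 0.34 in clone 1 and -0.27 in clone 18 and differed by -0.61 (SE 0.08, edgeR adjusted p = 0.000254), and CD38 rose by 0.42 in clone 1 alone and differed by -0.47 (SE 0.06, edgeR adjusted p = 0.000276). SDC1, the surface marker CD138, taken up after its values were seen, fell by 0.84 in clone 1 and was at -0.08 in clone 18 (adjusted p = 0.770), a difference of 0.76 (SE 0.18, edgeR adjusted p = 0.00923), or 0.48 with the GC correction.

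Of 14 antibody genes 3 were higher and 2 lower (35.7%, against 23.9% of all genes), with a median of 0.16. With the GC correction, when 36.9% of all genes were called, they were 5 and 3. The 5 calls were 2 without clone 18 0 h replicate 2 or 48 h replicate 3 and 3 without clone 1 48 h replicate 2. IGHA1, the heavy chain of IgA, was at 16480, 11430 and 11460 CPM in clone 1 at 0 h and at 4881, 3287 and 4244 CPM at 48 h. In clone 18 IGHA1 was at 10370, 8962 and 9867 CPM at 0 h and at 4819, 4949 and 5964 CPM at 48 h. It fell in both clones, and the difference of 0.77 (SE 0.22, edgeR adjusted p = 0.0219) was 0.58 without clone 1 0 h replicate 1 and 0.31 with the GC correction. The call was lost without clone 18 0 h replicate 2 or 48 h replicate 3 (adjusted p = 0.0596 and 0.0502). IGHA1 may share reads with IGHA2. IGKC, the kappa light chain, fell by 0.29 in clone 18 and differed by -0.43 (SE 0.09, edgeR adjusted p = 0.00413). JCHAIN, which joins IgA molecules, moved by 0.27 in clone 1 and -0.32 in clone 18 and differed by -0.59 (SE 0.11, edgeR adjusted p = 0.00203).

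Of 31 interferon-stimulated genes 9 rose and 4 fell in clone 1, none rose and 4 fell in clone 18, and 1 was higher and 11 were lower (38.7%), with a median of -0.18. The 12 calls were 7 without any 1 of clone 1 48 h replicate 2, clone 18 0 h replicates 2 and 3 and clone 18 48 h replicates 1 and 3. STAT2, a factor of the interferon response, was at 61.9, 64.5 and 66.2 CPM and 107, 108 and 101 CPM in clone 1 at 0 and 48 h. In clone 18 STAT2 was at 148, 152 and 150.5 CPM and 122, 120.2 and 124 CPM, a difference of -1.01 (SE 0.06, edgeR adjusted p = 1.53e-06). The groups were apart and clone 18 stayed higher. IRF1 and IFI35 rose by 0.90 and 0.57 in clone 1 alone and differed by -1.04 (SE 0.13, edgeR adjusted p = 0.000142) and -0.80 (SE 0.14, edgeR adjusted p = 0.00189). Of 19 genes of MHC class I and peptide loading 1 was higher and 2 were lower (15.8%, against 23.9% of all genes), with a median of -0.13. But 11 were lower with the GC correction, when 36.9% of all genes were called, and 7 were called without clone 1 0 h replicate 1. The higher gene was CALR. B2M moved by 0.17 in clone 1 and -0.26 in clone 18 and differed by -0.42 (SE 0.07, edgeR adjusted p = 0.000911), and the peptidase gene ERAP1 fell by 0.36 in clone 18 alone and differed by -0.45 (SE 0.08, edgeR adjusted p = 0.00249). Of 17 MHC class II genes 3 were higher and 3 lower (35.3%), with a median of 0.15, and 7 and 2 with the GC correction. Without clone 18 0 h replicate 2 the 6 calls were 3. CIITA, the coactivator of this class, rose by 0.54 in clone 18 alone and differed by 0.60 (SE 0.12, edgeR adjusted p = 0.00456). HLA-DOA rose by 0.57 in clone 1 alone and differed by -0.57 (SE 0.08, edgeR adjusted p = 0.000325). HLA-DQA2 fell by 0.36 in clone 18 alone and differed by -0.56 (SE 0.13, edgeR adjusted p = 0.00924), which was not called with all 48 libraries (adjusted p = 0.105).

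Survival and cytokine genes also parted. Of 18 genes of the BCL2 family 3 were higher and 5 lower (44.4%, against 23.9% of all genes), with a median of -0.15. The 8 calls were 5 without clone 18 0 h replicate 3. Killers and protectors were both among the lower. BMF, which promotes cell death, was at 5.74, 6.19 and 5.05 CPM and 12.4, 14.02 and 13.2 CPM in clone 1 at 0 and 48 h. In clone 18 BMF lay between 10.8 and 12.96 CPM in all 6 libraries, a difference of -1.39 (SE 0.13, edgeR adjusted p = 2.04e-05). MCL1, a survival factor of plasma cells, was at 1570, 1723 and 1659 CPM and 2020, 2242 and 2043 CPM in clone 1. In clone 18 MCL1 was at 2200, 2319 and 2204 CPM and 1948, 2037 and 1960 CPM, a difference of -0.53 (SE 0.07, edgeR adjusted p = 0.000319). For MCL1 the 48 h libraries of the clones overlapped. BCL2, another survival factor, rose by 0.66 in clone 1 alone and differed by -0.78 (SE 0.11, edgeR adjusted p = 0.000359). Of 24 genes of IL6, STAT3 and cytokine signalling 3 were higher and 6 lower (37.5%), and their median of 0.07 was -0.08 with the GC correction. IL2RG, the common cytokine receptor chain, moved by 0.59 in clone 1 and -0.17 in clone 18 and differed by -0.76 (SE 0.05, edgeR adjusted p = 2.07e-06), and the kinase gene PIM2 fell by 0.34 in clone 18 alone and differed by -0.45 (SE 0.06, edgeR adjusted p = 0.000311). Of 41 genes of lysosomes and autophagy 4 were higher and 11 lower (36.6%), with a median of -0.11. With the GC correction, when 36.9% of all genes were called, they were 6 and 18. WIPI1, which acts on early autophagosomes, and CTSS, a protease of antigen processing, rose in clone 1 and fell in clone 18 and differed by -0.84 (SE 0.08, edgeR adjusted p = 2.26e-05) and -0.76 (SE 0.08, edgeR adjusted p = 3.99e-05). NPC2, a cholesterol carrier of the lysosome, fell by 0.47 in clone 18 alone and differed by -0.46 (SE 0.07, edgeR adjusted p = 0.000885).

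**Figure D5:**
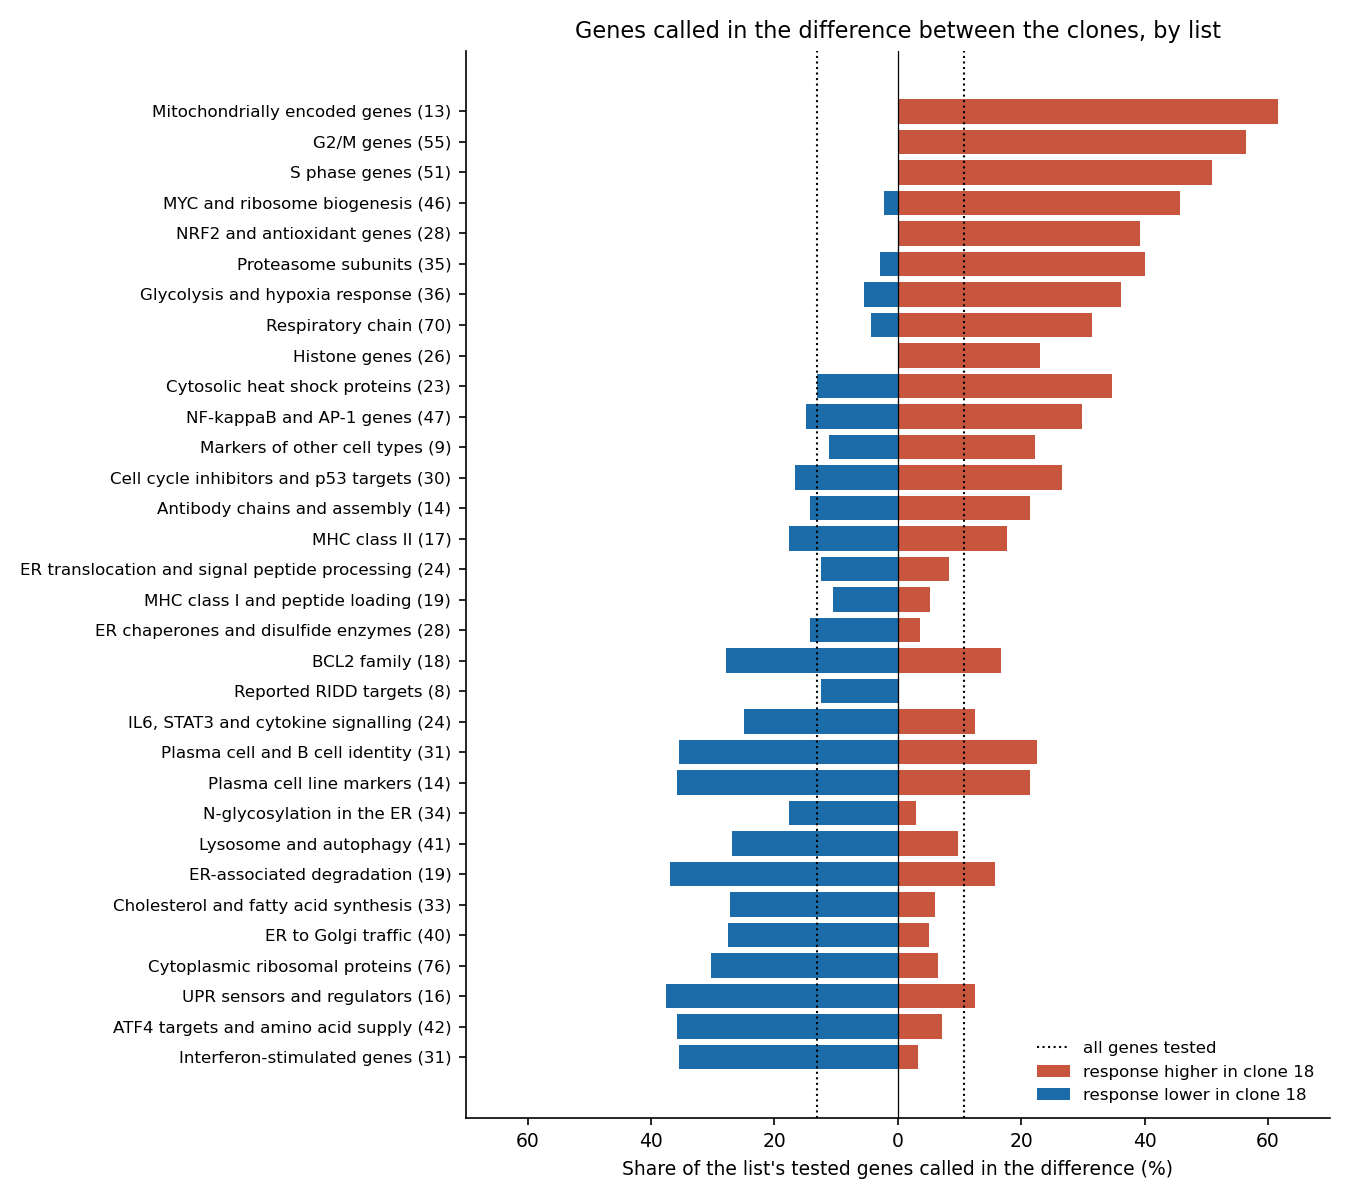
Share of the tested genes of each list (number in brackets) that were called in the difference, with those higher in clone 18 to the right and those lower to the left (%), and dotted lines at the shares over all genes, 10.7% and 13.2%. The lists of mitochondrially encoded, G2/M and S phase genes extend to the right alone, and those of interferon-stimulated genes, ATF4 targets and UPR regulators mainly to the left.

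Of the 9 tested markers of other cell types 2 were higher and 1 was lower (33.3%, against 23.9% of all genes), with a median of -0.01. CD4, which this line expresses, moved by 0.35 in clone 1 and -0.20 in clone 18 and differed by -0.55 (SE 0.06, edgeR adjusted p = 7.93e-05), and it was not called with all 48 libraries (adjusted p = 0.0814). CD14 fell from between 0.440 and 0.613 CPM to between 0.0945 and 0.179 CPM in clone 1 and differed by 2.15 (SE 0.57, edgeR adjusted p = 0.0166), but not without clone 18 48 h replicate 2 (adjusted p = 0.0569). COL1A1 differed by 1.58 (SE 0.43, edgeR adjusted p = 0.0179) at 1.20 CPM or less in all libraries. A few other genes moved alike in both clones. PPFIA4, a liprin gene, rose by 0.69 and 1.92 and differed by 1.23 (SE 0.28, edgeR adjusted p = 0.00731). RAB6B, a Golgi GTPase gene, fell by 1.01 and 0.41 and differed by 0.60 (SE 0.16, edgeR adjusted p = 0.0154). GCSAM, named for germinal centers, rose by 1.06 and 0.43 and differed by -0.63 (SE 0.12, edgeR adjusted p = 0.00258). ARMCX3, of the outer mitochondrial membrane, fell by 0.22 and 0.92 and differed by -0.70 (SE 0.07, edgeR adjusted p = 5.02e-05). ARID5B, a chromatin protein, rose by 1.09 and 0.36 and differed by -0.72 (SE 0.17, edgeR adjusted p = 0.00984), and it was not called with all 48 libraries (adjusted p = 0.198).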

How the data were processed

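RNA of AMO1 shXBP1 clones 1 and 18 was sequenced after 0 and 48 h of Dox in 3 libraries each, from a stranded mRNA kit with single-end reads. A gene by library table of counts (58302 genes) and one of log2 CPM values were deposited by the authors. Their processing notes name GSNAP 2013-10-10, R 4.1.3, edgeR 3.32.1, limma 3.46.0 and the builds GRCh37 and hg19, without roles. The study states another assembly for a related experiment, and the use of strand in counting is not given in the sources used here. The deposited log2 values (18401 genes) were matched by edgeR's log2 CPM at prior count 2, with deviations up to 5e-14, and served as an alternative. No column of per-sample values was left unmapped.

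After TMM scaling, a mean per group (4 groups) was fitted in R 4.3.3 by the quasi-likelihood method of edgeR 4.0.16. The filter filterByExpr, with a count minimum of 10 and a total of 15, left 16644 genes holding 99.93% of the reads. Tests were two-sided, and Benjamini-Hochberg adjusted p-values across these genes were called under 0.05. Standard errors are on the log2 scale. TMM factors ran from 0.96 to 1.04. Levels are CPM on TMM-scaled totals, except the sums over markers, which used plain totals. Levels are compared within a gene only, since they are not divided by length. In bulk RNA fewer cells of a type and less RNA per cell cannot be told apart.

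Named genes were XBP1, ERN1 and IRF4; the 10 largest differences in each direction; the 5 opposite genes of each kind with the largest smaller change; the 5 genes of each direction that moved alike with the largest difference; and up to 3 called members of each list with the lowest p. The middle groups required a mean log2 CPM above 1, an adjusted p under 0.05, a plain symbol, and every pair of 48 and 0 h libraries of one clone beyond those of the other. The clones, the lists and the rule were chosen with earlier results of these data known, so no list is independent support. Classes are counts of calls in each clone.

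Alternatives were RLE factors, no filter, DESeq2 1.42.0, limma 3.58.1 on the log2 table, a replicate block, all 48 libraries or the 23 shXBP1 libraries without the one that stands apart, and leaving out each library in turn. The GC correction (loess, span 0.5, GC share of the longest GENCODE 44 transcript for 99.3% of genes) was added after seeing the data. Overlaps between genes come from GENCODE 44. Fits were tested on simulated data. Sequences are from RefSeq.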

Additional observations from a re-analysis of the deposited data

Results flagged for a closer look

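All values here are differences between the clones in the 48 h response, tested by the interaction in edgeR, and groups of 3 are too small to test for a library far from the others. The test found 3979 genes with a differing response, 335 of them called in both clones in opposite directions. Among the genes the series is about, XBP1 differed by 0.29, ERN1 by -0.92 and IRF4 by -0.21. Of the opposite genes named by rule, EGR1 (chromosome 5) differed by 5.06, FOS by 3.53, ID2 by 2.10, HES1 by 1.41 and SNORD36A by 1.04, with a fall in clone 1 and a rise in clone 18. The reverse held for IL24 at -2.37, SMIM14 at -2.13, HSPA1B at -1.85, DDIT4 at -1.68 and LINC01355 at -1.56.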

How the results depend on the processing

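The count of 3979 genes was 3976 with RLE factors, 4308 with no filter, 3957 with DESeq2 (3676 shared in the same direction), 3834 with limma, 4446 with all 48 libraries and 4172 with 23. With no filter 54.3% of calls were higher in clone 18, against 44.9%. With the GC correction 6137 genes were called in the difference, 2985 higher, 1201 opposite, and 4243 in clone 18. Leaving out 1 library gave 2754 (clone 18 0 h replicate 2) to 4118 genes, 1124 to 2004 higher, 1630 to 2177 lower, 486 to 873 of at least 2-fold, 150 to 463 opposite, 4620 to 6314 called in clone 1, 837 to 2630 in clone 18, 7649 to 9150 at 0 h and 4493 to 6729 at 48 h. The cause of these shifts was not tested.

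Correlations of deviations ran from -0.695 to 0.800 between same-numbered libraries and from -0.866 to 0.817 between others. These ranges overlap, so they cannot decide whether the replicate numbers pair the libraries, and the main fit does not pair them. With the replicate block 4595 genes were called. With the block and the GC correction the counts were 6179 in the difference, 3015 higher, 1207 opposite and 4242 in clone 18.

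Of 121 named genes 107 were called under all 21 settings that gave a value, 14 were lost under some, each named in the report, and none reversed. Counts of list members moved by over 1.5 times in 13 of 32 lists with the GC correction and in up to 8 when a library was left out. Genes at few CPM, such as DPEP3, TREML2, CD14 and COL1A1, are limited by depth.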

Other observations

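The libraries at 24 and 72 h, which enter no test above, gave these mean levels, with 2 libraries for clone 18 at 72 h, without replicate 3, and 3 otherwise. EGR1 was at 12.95 CPM at 24 h and 27.8 CPM at 72 h in clone 1, and at 33.0 and 36.2 CPM in clone 18. FOS was at 1.63 and 2.82 CPM in clone 1 and at 4.76 and 6.19 CPM in clone 18. For both genes clone 18 was thus above clone 1 at 24, 48 and 72 h and below it at 0 h. BTG2 was at 205 CPM at 24 h and 223 CPM at 72 h in clone 1, and at 288 and 295 CPM in clone 18. ERN1 was at 327 and 315 CPM in clone 1 and at 399.8 and 351 CPM in clone 18. DDIT3 was at 49.3 and 43.2 CPM in clone 1 and at 44.7 and 42.2 CPM in clone 18. None of these differences was tested.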
